A study of Mus musculus with 12 samples.

Results

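Ddit4 and 8 other genes that glucocorticoids are known to act on or through were followed in the mouse retina after a glial deletion of ABCA1, which exports cellular cholesterol and phospholipid. The 9 genes were Ddit4, Tsc22d3, Fkbp5, Sgk1, Klf9, Nr3c1, Zbtb16, Mt1 and Mt2, found by their Entrez IDs among 27179 gene IDs, and all 9 were among the 16475 genes that passed the filter on low counts. Ddit4 was taken for its lower level in 12-month knockout retina, so its values in that comparison are a description with no test. The question for the other 8 genes was whether they follow it. RNA was sequenced from retinal tissue of mice at 12 and at 3 months of age. The 4 groups were Glia-ABCA1KO (KO) at 12 months, control at 12 months, KO at 3 months and control at 3 months, with 3 libraries in each. The extraction protocol in the labels calls the animals Astro-KO mice, and no driver of the deletion, exact genotype of the controls, sex or pooling of the mice is given in the sources used here. Whether replicate libraries stand for separate animals is not said in the labels, so every p-value reflects the spread over libraries only, and that spread may be technical.

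Glucocorticoids enter cells and bind the receptor encoded by Nr3c1, which is held ready by heat shock proteins and their partner proteins, then moves to the nucleus and binds DNA at glucocorticoid response elements. Fkbp5, Tsc22d3, Sgk1, Klf9, Zbtb16, Ddit4 and the metallothionein genes are among the genes it is known to raise in other tissues. Ddit4, also called Redd1, encodes an inhibitor of the growth kinase complex mTORC1, and it is raised by low oxygen through hypoxia-inducible factors and by the stress factor ATF4 as well. The metallothioneins bind zinc and copper and are also raised by metals through the factor MTF1.

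Promoter sequences are shown for Ddit4, Mt2, Mt1 and Sgk1. Mt2 and Mt1 are the members other than Ddit4 with the largest differences between KO and control retina at 12 months. Sgk1 is the member, among the 7 searched, whose promoter held a full glucocorticoid response element. RefSeq promoter windows of GRCm38.p6 ran from 250 bases before to 50 bases after a start site. They were searched for 7 of the 9 members, and some members have several start sites. No window of Nr3c1 or Zbtb16 was searched, so nothing is said of their promoters. Each sequence shown is written 5′ to 3′ on the strand of the gene. The motifs were searched on both strands. Those marked here were the glucocorticoid response element, which is AGAACA and TGTTCT with any 3 bases between them, and the hypoxia core ACGTG. The metal response element, written TGCGCNC or TGCACNC, is also marked. Further motifs searched were the half-site AGAACA alone, CACGTG, TGACGTCA, TGATGCAA and TGACNNNGC. Capitals mark the hypoxia core in Ddit4, the response element in Sgk1 and the metal response elements in Mt2 and Mt1.
Ddit4, chr10:59951721-59952020, minus strand: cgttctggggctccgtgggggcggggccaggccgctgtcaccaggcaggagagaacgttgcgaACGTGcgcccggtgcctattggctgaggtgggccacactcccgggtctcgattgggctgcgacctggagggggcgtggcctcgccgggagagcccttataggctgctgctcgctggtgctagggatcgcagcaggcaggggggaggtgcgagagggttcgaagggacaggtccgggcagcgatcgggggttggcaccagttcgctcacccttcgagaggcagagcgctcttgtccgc
Sgk1, chr10:21993640-21993939, plus strand: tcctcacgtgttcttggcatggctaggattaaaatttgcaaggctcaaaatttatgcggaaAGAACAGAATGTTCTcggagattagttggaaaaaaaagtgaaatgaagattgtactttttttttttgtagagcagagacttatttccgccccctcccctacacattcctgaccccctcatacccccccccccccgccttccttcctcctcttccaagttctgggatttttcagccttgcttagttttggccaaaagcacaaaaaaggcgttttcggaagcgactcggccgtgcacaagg
Mt2, chr8:94172368-94172667, plus strand: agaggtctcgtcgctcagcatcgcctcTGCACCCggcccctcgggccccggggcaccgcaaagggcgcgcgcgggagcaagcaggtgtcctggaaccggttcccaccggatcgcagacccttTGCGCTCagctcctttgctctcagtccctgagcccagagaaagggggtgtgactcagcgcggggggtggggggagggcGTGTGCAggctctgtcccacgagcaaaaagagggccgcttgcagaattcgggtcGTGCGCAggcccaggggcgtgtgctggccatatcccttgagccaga
Mt1, chr8:94178839-94179138, plus strand: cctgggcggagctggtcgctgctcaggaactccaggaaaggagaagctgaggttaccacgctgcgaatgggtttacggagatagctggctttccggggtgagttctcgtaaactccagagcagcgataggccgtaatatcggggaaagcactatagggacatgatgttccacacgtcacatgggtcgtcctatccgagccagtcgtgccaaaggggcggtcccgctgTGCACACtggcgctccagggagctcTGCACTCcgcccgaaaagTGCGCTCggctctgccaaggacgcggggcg
The full response element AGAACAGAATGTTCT lay 189 bases before the start site of 1 of the 6 Sgk1 windows, and 3 of 32851 promoters, or 0.00913%, held such an element. None of the other member windows searched held one. The Ddit4 window held 1 hypoxia core, which 19.6% of all promoters held, and a metal response element that overlaps it. It held none of the further motifs. Hypoxia cores also lay in windows of Fkbp5, Sgk1, Klf9 and Mt1. The Mt2 window held 4 metal response elements and the Mt1 window held 3, against at least 1 in 25.7% of all promoters. These matches are a description of the letters in the windows.

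The libraries held 29027099 to 30438026 counts. Summed rod markers, which should dominate retina, reached 42596 to 50737 CPM, that is counts scaled to library size, in every library. Abca1 was not lower in the libraries labelled KO. It had 27.4, 39.01 and 42.5 CPM in KO and 32.7, 27.7 and 31.9 CPM in control retina at 12 months, and 27.5, 27.2 and 24.3 CPM in KO and 20.7, 20.9 and 26.6 CPM in control retina at 3 months. Its log2 fold change was 0.24 ± 0.14 (SE, adjusted p = 0.65) at 12 months and 0.21 ± 0.14 (adjusted p = 0.70) at 3 months by edgeR's quasi-likelihood test. Counts over a whole gene in whole retina do not check a deletion in glia alone, so KO is used here as the libraries' label. Some libraries stand apart from the rest. Xist, an X-linked RNA, had 52.3, 70.7 and 85.5 CPM in the 12-month KO libraries and at most 0.61 CPM in any other. The Y-linked Eif2s3y was present in every group, with 71.4, 59.2 and 66.3 CPM in the 12-month KO libraries and 62.6, 60.8 and 57.9 CPM in the 12-month control libraries, and Ddx3y, Uty and Kdm5d were not called lower in KO retina either. Skeletal muscle markers summed to 118 to 133 CPM in the 3-month control libraries and to 26.5 to 35.1 CPM in all others, and lens markers summed to 4082 CPM in replicate 2 of the 3-month control group. In bulk tissue, fewer cells of a type and less RNA per cell cannot be told apart.

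At 12 months Ddit4 was lower in KO retina than in control retina, while none of the other 8 genes passed the test in either direction. Ddit4 had 275, 275 and 287 CPM in KO retina, against 501, 488 and 400 CPM in control retina. The means were 279 ± 7.02 CPM in KO and 463 ± 54.9 CPM in control retina (SD, n = 3 each). All 3 KO libraries lay well below all 3 control libraries, and the fitted fold was 0.603, a log2 fold change of -0.73. These are the values that chose the gene. In the authors' deposited table for the same comparison Ddit4 has a log2 fold change of -0.61, on a scale that appears shrunken toward zero.

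Without Ddit4, 0 of 8 members passed an adjusted p of 0.05 at 12 months in edgeR's quasi-likelihood test, adjusted by Benjamini-Hochberg over all genes tested, where 0.212% of the tested genes did. An unadjusted p below 0.05 was reached by 2 of the 8, Mt1 and Mt2, against 8.7% of all genes. Of the 8, Mt2 alone passed by DESeq2, which called 0.737% of all genes. Mt1 and Mt2 passed by limma-voom, which called 1.13%. The median log2 fold change of the 8 genes was 0.05, and that of all genes was -0.00.

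Nr3c1, the glucocorticoid receptor, had 58.2, 61.5 and 62.5 CPM in KO and 54.7, 58.3 and 60.1 CPM in control retina at 12 months. The groups overlapped, with a log2 fold change of 0.07 ± 0.10 (SE, 95% interval -0.14 to 0.29, adjusted p = 0.86). The 12-month KO and control libraries together ran from 54.7 to 62.5 CPM of receptor RNA, and its part in the Ddit4 values was not tested. Fkbp5 encodes a co-chaperone that lowers the receptor's affinity for hormone and is itself a receptor target. It had 30.7, 33.5 and 37.5 CPM in KO and 33.3, 35.6 and 36.1 CPM in control retina. The KO libraries lay on both sides of the control libraries, and the log2 fold change was -0.05 (95% interval -0.24 to 0.14, adjusted p = 0.91).

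Tsc22d3, also called Gilz, encodes a leucine zipper protein that mediates anti-inflammatory actions of the hormone. It had 32.3, 29.7 and 28.2 CPM in KO and 28.2, 30.0 and 29.9 CPM in control retina at 12 months. The groups overlapped, with a log2 fold change of 0.03 (95% interval -0.15 to 0.22, adjusted p = 0.94). Tsc22d3 lies on the X chromosome, and the 12-month KO libraries are those with high Xist. The part of that difference in the Tsc22d3 value was not tested. Sgk1 encodes a kinase that raises ion channel and transporter activity. It had 670, 565 and 580 CPM in KO and 490, 609 and 642 CPM in control retina. The highest library was KO replicate 1 and the lowest was control replicate 1, the groups overlapped, and the log2 fold change was 0.06 (95% interval -0.14 to 0.26, adjusted p = 0.89).

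Klf9, a zinc finger repressor, had 140, 146 and 151 CPM in KO and 150, 170 and 148 CPM in control retina at 12 months. Only control replicate 2 stood above the rest, and the log2 fold change was -0.10 (95% interval -0.24 to 0.05, adjusted p = 0.71). Zbtb16, a transcriptional repressor of the zinc finger family, had 2.64, 6.42 and 6.49 CPM in KO and 3.10, 7.77 and 5.67 CPM in control retina. It was the least abundant member, with 80 to 231 counts a library, and replicate 1 was low in both groups. Its log2 fold change of -0.09 had a 95% interval of -0.78 to 0.60 (adjusted p = 0.96). The intervals of Nr3c1, Fkbp5, Tsc22d3, Sgk1 and Klf9 reached no lower than -0.24 and no higher than 0.29, and that of Zbtb16 was far wider.

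The metallothioneins stood on the other side, with higher levels in KO retina that did not pass the test. Mt2 had 17.6, 17.4 and 18.1 CPM in KO retina at 12 months against 7.78, 8.95 and 13.2 CPM in control retina, and its counts over all 12 libraries ran from 227 to 533. Every KO library lay above every control library. The fitted fold was 1.77, with a log2 fold change of 0.82 ± 0.18 (SE, 95% interval 0.45 to 1.20, adjusted p = 0.082). Mt1 had 48.2, 53.1 and 46.8 CPM in KO and 33.6, 37.1 and 42.4 CPM in control retina. Its KO libraries also lay above its control libraries, as 8.32% of all genes did at this age. The log2 fold change of Mt1 was 0.39 ± 0.11 (SE, 95% interval 0.16 to 0.62, adjusted p = 0.22).

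The Mt2 call depended on the method. It passed under 7 of 21 alternatives, with adjusted p = 0.0046 by DESeq2 and 0.0029 by limma-voom, and the adjusted p ranged from 0.0029 to 0.41 over all of them. It also passed without control replicate 3 of the 12-month group (adjusted p = 0.0098), without replicate 1 (0.021) or replicate 2 (0.0098) of the 3-month control group, and without a filter on low counts (0.040), by edgeR's test. Mt1 passed by limma-voom (adjusted p = 0.018) and without 3-month control replicate 2 (adjusted p = 0.032). In the authors' deposited table Mt2 has a log2 fold change of 0.48 with an adjusted p of 0.00091, and Mt1 one of 0.30 with an adjusted p of 0.055. In the same authors' deposited table the adjusted p of Tsc22d3, Fkbp5, Sgk1, Klf9, Nr3c1 and Zbtb16 lies between 0.85 and 0.99.

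Mt1 and Mt2 lie next to each other on chromosome 8 and are close copies, and how reads that align to both were counted is not given in the sources used here. Mt2 counts amounted to 36.4%, 32.7% and 38.7% of Mt1 counts in KO and to 23.1%, 24.1% and 31.2% in control libraries at 12 months. At 3 months they amounted to 30.2%, 36.8% and 29.2% in KO and to 22.1%, 28.5% and 29.2% in control libraries. The KO libraries lay above the control libraries in this ratio at 12 months, and at 3 months KO replicate 3 and control replicate 3 were almost level.

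**Figure D1:**
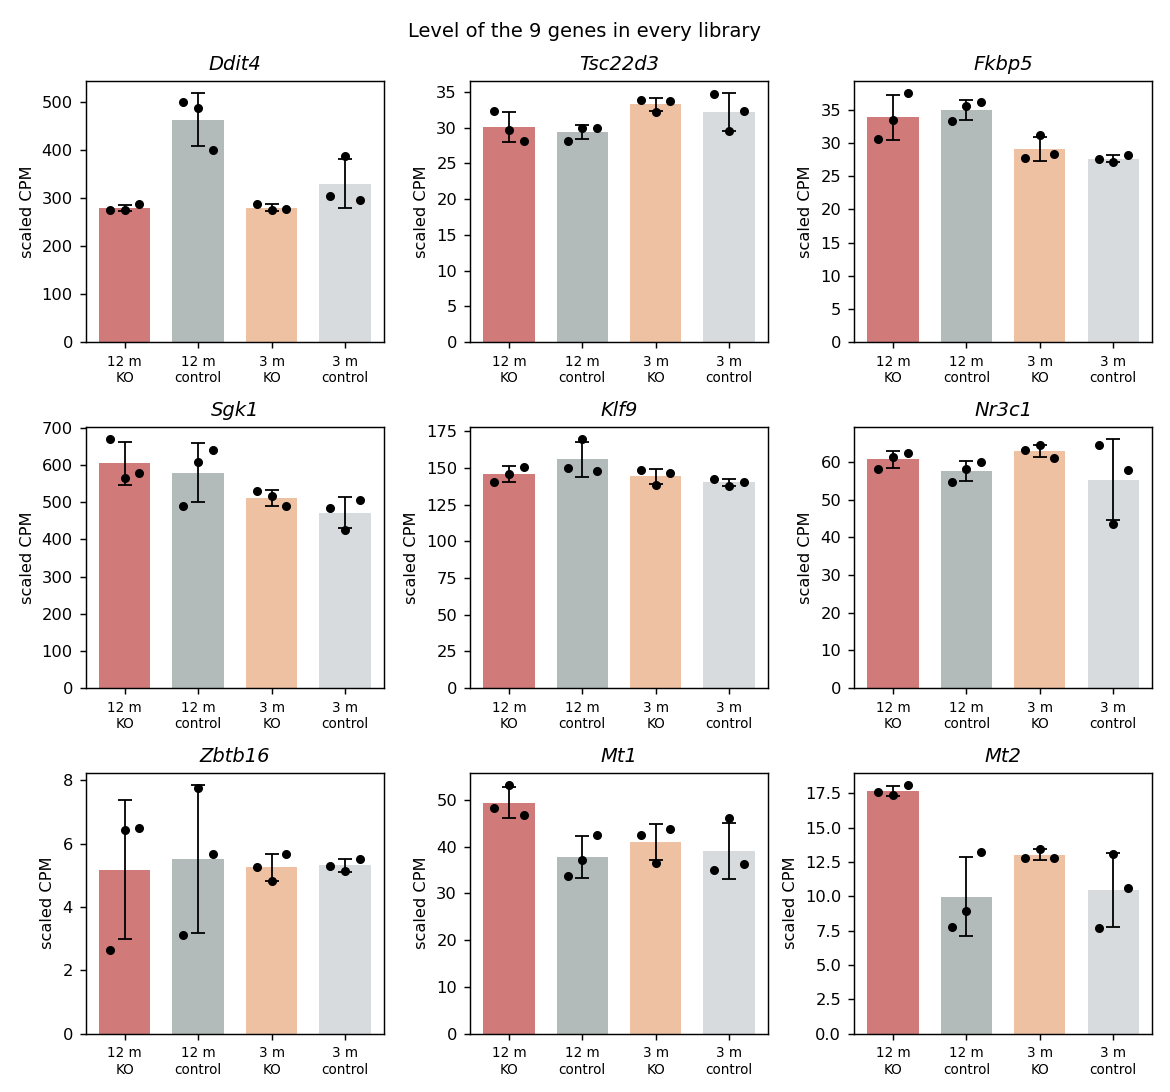
CPM of each of the 9 genes in the 4 groups, as bars for the mean with the SD over 3 libraries and points for the libraries. Ddit4 is high in the 12-month control group (400 to 501 CPM) and lies between 274 and 288 CPM in the 6 KO libraries, while Mt2 is highest in the 12-month KO group (17.4 to 18.1 CPM).

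At 3 months, in libraries that the choice of Ddit4 did not use, no member passed the test. Ddit4 had 288, 274 and 277 CPM in KO and 304, 388 and 296 CPM in control retina. The 3 KO libraries lay below the 3 control libraries, as 7.66% of all genes did, and control replicate 2 was the highest. The log2 fold change of Ddit4 was -0.24 ± 0.095 (SE, 95% interval -0.44 to -0.04, adjusted p = 0.65 by edgeR's quasi-likelihood test). Without that control library, which also held the most lens RNA, the other 2 control libraries were at 304 and 296 CPM, still above the KO libraries. Lens RNA was raised in these 2 as well. Over all alternatives the log2 fold change stayed between -0.31 and -0.10, and the adjusted p was 0.33 or higher.

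Of the 9 members, 0 passed the adjusted threshold at 3 months by edgeR, DESeq2 or limma-voom, where edgeR called 0.225% of all genes. An unadjusted p below 0.05 was reached by 1 member, Ddit4, against 7.5% of all genes. Mt2 had 12.8, 13.5 and 12.8 CPM in KO and 7.71, 13.1 and 10.6 CPM in control retina at this age. Control replicate 2 lay inside the KO range, and the log2 fold change of Mt2 was 0.32 ± 0.18 (SE, adjusted p = 0.69). The Mt1 values overlapped more, at 42.5, 36.6 and 43.8 CPM in KO and 34.96, 46.0 and 36.2 CPM in control retina, with a log2 fold change of 0.07 (adjusted p = 0.87).

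Nr3c1 had 63.1, 64.6 and 61.2 CPM in KO and 64.6, 43.6 and 58.0 CPM in control retina at 3 months. The receptor was low in control replicate 2, the library with the most lens RNA, and its log2 fold change was 0.19 ± 0.10 (SE, adjusted p = 0.68). The part of that library's makeup in the Nr3c1 value was not tested. The receptor's targets lay closer together. Fkbp5 had 27.8, 31.2 and 28.3 CPM in KO and 27.6, 27.1 and 28.1 CPM in control retina. Tsc22d3 had 33.8, 32.2 and 33.7 CPM in KO and 34.7, 29.5 and 32.3 CPM in control retina. For both genes the groups overlapped, with log2 fold changes of 0.07 (adjusted p = 0.82) for Fkbp5 and 0.05 (adjusted p = 0.89) for Tsc22d3. Sgk1 averaged 512 ± 21.2 CPM in KO and 472 ± 41.9 CPM in control retina (SD, n = 3 each, as for the next genes). Klf9 averaged 145 ± 5.12 CPM in KO and 140 ± 2.33 CPM in control retina. Zbtb16 averaged 5.26 ± 0.424 CPM in KO and 5.32 ± 0.198 CPM in control retina. All 3 overlapped between the groups, and their adjusted p ran from 0.74 to 0.99.

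The KO effects at the 2 ages were also compared directly, as the effect at 12 months minus the effect at 3 months. Of the 8 members other than Ddit4, 0 passed, against 0.127% of all genes, and an unadjusted p below 0.05 was reached by 0, against 4.33% of all genes. The contrast that chose Ddit4 enters here. For Ddit4 the difference was -0.49 on the log2 scale and is a description. DESeq2 and limma-voom also called 0 of the 8. For Mt2 the difference was 0.51 ± 0.25 (SE) and for Mt1 0.32 ± 0.16, both with adjusted p = 0.999. For the other 6 genes it lay between -0.14 and -0.01.

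**Figure D2:**
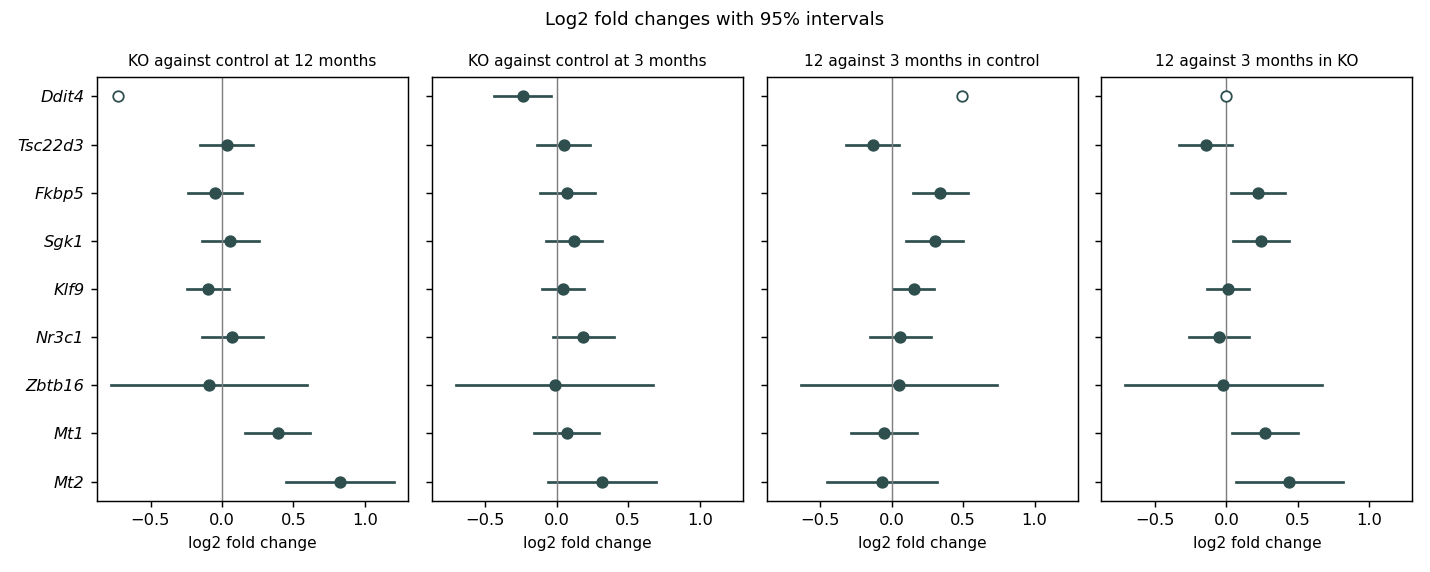
Log2 fold changes of the 9 genes in the 4 comparisons with their 95% intervals, and as open circles without interval for Ddit4 where the 12-month libraries that chose it enter. The intervals of Mt2 (0.45 to 1.20) and Mt1 (0.16 to 0.62) at 12 months lie above 0 although neither passed after adjustment.

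With age, Ddit4 was higher at 12 than at 3 months in control retina and level in KO retina. These comparisons share their 12-month libraries with the contrast that chose Ddit4, so its values here are a description with no test. In control retina Ddit4 averaged 463 ± 54.9 CPM at 12 months and 329 ± 51.0 CPM at 3 months (SD, n = 3 each). The 400 CPM of 12-month replicate 3 and the 388 CPM of 3-month replicate 2 lay close to each other, but the groups did not overlap. The log2 fold change was 0.49 ± 0.095 (SE), and it lay between 0.42 and 0.62 under the alternatives. In KO retina the means were 279 ± 7.02 CPM at 12 months and 280 ± 7.13 CPM at 3 months, a log2 fold change of -0.00 ± 0.095 (SE).

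The 6 KO libraries thus lay between 274 and 288 CPM, and the 6 control libraries between 296 and 501 CPM. The coefficient of variation of Ddit4 was 2.52% in KO and 11.9% in control libraries at 12 months, and 2.55% in KO and 15.5% in control libraries at 3 months. Among 2277 genes with a mean of at least 100 CPM, the median coefficient was 6.72% in KO and 4.28% in control libraries at 12 months, and 2.68% in KO and 7.15% in control libraries at 3 months. Ddit4 was therefore more variable than the typical abundant gene in both control groups, and less variable than it in the 12-month KO group. With 3 libraries a group these coefficients are imprecise, and no test of them was made.

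Of the 8 members other than Ddit4, 0 passed with age in control retina by edgeR, where 2.11% of all genes passed. An unadjusted p below 0.05 was reached by 3 of them, against 12.5% of all genes. They were Fkbp5, Sgk1 and Klf9, all with higher values at 12 months. Fkbp5 had 33.3, 35.6 and 36.1 CPM at 12 months, above its 27.6, 27.1 and 28.1 CPM at 3 months. The log2 fold change of Fkbp5 was 0.34 ± 0.091 (SE, adjusted p = 0.056). It passed by DESeq2 (adjusted p = 0.015) and limma-voom (0.0095), which called 3.28% and 4.95% of all genes, and by edgeR without replicate 1 (0.028) or replicate 3 (0.048) of the 12-month KO group. Sgk1 had 490, 609 and 642 CPM at 12 months and 484, 425 and 506 CPM at 3 months in control retina. Its groups overlapped through the low 12-month replicate 1, and the log2 fold change of 0.30 ± 0.094 (SE, adjusted p = 0.13) became 0.41 (adjusted p = 0.021) without that library. Klf9, like Ddit4 and Fkbp5, was higher in every 12-month than in every 3-month control library, as 9.21% of all genes were, with a log2 fold change of 0.15 (adjusted p = 0.37).

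In KO retina 0 of the 8 members other than Ddit4 passed with age by edgeR or DESeq2 and 3 passed by limma-voom, where edgeR called 2.37% of all genes, DESeq2 3.78% and limma-voom 8.16%. An unadjusted p below 0.05 was reached by 4 members, Fkbp5, Sgk1, Mt1 and Mt2, against 13.3% of all genes. Mt2 had 17.6, 17.4 and 18.1 CPM at 12 months and 12.8, 13.5 and 12.8 CPM at 3 months, and every 12-month library lay above every 3-month one, as 10.7% of all genes did. The log2 fold change of Mt2 was 0.44 ± 0.18 (SE, adjusted p = 0.27), and in a fit to the 6 KO libraries alone the adjusted p was 0.018. Mt1 and Sgk1 were also higher in all 3 libraries at 12 months, with log2 fold changes of 0.27 ± 0.11 (adjusted p = 0.27) and 0.24 ± 0.094 (adjusted p = 0.25). Fkbp5 had a log2 fold change of 0.22 ± 0.091 (adjusted p = 0.28), and its groups overlapped. In control retina the log2 fold changes with age were -0.07 for Mt2 (adjusted p = 0.94) and -0.05 for Mt1 (adjusted p = 0.92).

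Tsc22d3, Nr3c1 and Zbtb16 did not pass with age in either genotype, adjusted or not. Tsc22d3 averaged 30.1 ± 2.07 CPM at 12 months and 33.2 ± 0.902 CPM at 3 months in KO retina, and 29.4 ± 1.02 CPM at 12 months and 32.2 ± 2.60 CPM at 3 months in control retina (SD, n = 3 each). The log2 fold changes were -0.14 in KO and -0.13 in control retina, with adjusted p = 0.53 and 0.63. Nr3c1 had log2 fold changes of -0.05 in KO and 0.06 in control retina. Zbtb16, whose libraries were tight at 3 months and spread at 12 months, had -0.02 in KO and 0.05 in control retina, with a SE of 0.32 in each.

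Other marker lists were read beside Ddit4. The 8 immediate early genes listed, which neurons switch on within minutes of stimulation, summed to 774 to 991 CPM at 12 months and to 468 to 506 CPM at 3 months in control retina, and 8 of 8 passed as higher, where 1.4% of all genes did. In KO retina, where Ddit4 was level with age, they summed to 757 to 797 CPM at 12 months and to 473 to 494 CPM at 3 months. There 5 of 8 passed as higher, where 2.37% of all genes passed in either direction. Between the genotypes at 12 months 0 of 8 passed and the sums overlapped. Their median log2 fold change was -0.30, and 6 of 8 values were below 0, against 50.7% of all genes. In 4 of them, Ier2, Nr4a1, Arc and Npas4, every KO library lay below every control library, as in 8.33% of all genes, with adjusted p = 0.10, 0.072, 0.43 and 0.083. These 4 ran in the same direction as Ddit4. Microglia markers summed to 43.5 to 44.6 CPM at 12 months and 31.5 to 32.0 CPM at 3 months in KO retina, and to 39.96 to 44.1 CPM at 12 months and 28.6 to 31.9 CPM at 3 months in control retina. Of the 7 microglia markers, the complement genes C1qa (log2 fold change 0.77, adjusted p = 0.0013 by edgeR) and C1qc (0.66, adjusted p = 0.034) rose with age in KO retina, and C1qc (0.78, adjusted p = 0.013) rose in control retina. These were 2 of 7 in KO retina, where 2.37% of all genes were called in either direction. The control count was 1 of 7, where 1.4% of all genes were called higher. Between the genotypes, Müller glia markers summed to 4012 to 4096 CPM in KO and 4167 to 4291 CPM in control libraries at 12 months, and ganglion cell markers to 802 to 846 CPM in KO and 875 to 924 CPM in control libraries. None of the 7 markers of either of these 2 types passed the test. In each list 5 values were below 0 and 2 above, where 50.7% of all genes were below 0. In 2 genes of each list every KO library lay below every control library, as in 8.33% of all genes. The largest part of the Müller glia sum is Glul, at a mean of 2482 CPM, which is also among the further glucocorticoid targets listed below. These sums do not measure cell numbers. The part of these differences in the values of the members was not tested.

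Set on a scale per length, as CPM per kilobase of exon, Ddit4 was the most abundant member over the 12 libraries, at 192. Sgk1 followed at 111, then Mt1 at 33.5, Klf9 at 30.5 and Mt2 at 21.7. Nr3c1 at 7.71 and Tsc22d3 at 7.19 were close to each other, and Fkbp5 at 3.32 and Zbtb16 at 1.01 came last. From the lowest to the highest library, CPM varied 2.94-fold for Zbtb16, 2.35-fold for Mt2 and 1.83-fold for Ddit4, and 1.23-fold for Klf9 and Tsc22d3.

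The likeness of each gene's profile to that of Ddit4 was measured as the root mean square difference of log2 CPM, centred on the gene's mean, over the 12 libraries. This measure contains the contrast Ddit4 was chosen on. Among 14355 genes the median difference was 0.35, and a gene with a flat profile would be at 0.32. Klf9 was the nearest member at 0.28, ranked 1492, followed by Fkbp5 at 0.30, ranked 2840. Sgk1 at 0.37, Tsc22d3 at 0.38 and Nr3c1 at 0.41 were farther from Ddit4 than a flat line, as were Mt1 at 0.44, Zbtb16 at 0.52 and Mt2 at 0.65, ranked 14018. Within the groups, each of the other 8 members lay on the same side of its group mean as Ddit4 in 4 to 6 of the 12 libraries, against a median of 6 over all genes.

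The 5 genes nearest to Ddit4 were Gm9195, Dusp1, Ppp1r15a, Npas4 and Zfp503, with differences of 0.13 to 0.16. Dusp1, a phosphatase of MAP kinases and itself a known glucocorticoid target, averaged 58.1 ± 1.80 CPM in KO and 76.6 ± 9.67 CPM in control retina at 12 months, and 56.1 ± 0.873 CPM in KO and 61.2 ± 9.80 CPM in control retina at 3 months (SD, n = 3 each). Ppp1r15a, which directs the phosphatase that reverses the stress arrest of translation, averaged 24.2 ± 0.805 CPM in KO and 32.5 ± 4.43 CPM in control retina at 12 months. Npas4, a transcription factor switched on by neuronal activity, averaged 16.97 ± 1.90 CPM in KO and 25.2 ± 4.74 CPM in control retina. Since the 5 were picked for their likeness to Ddit4 over these libraries, their values are a description with no test. Their fitted log2 fold changes lay between -0.64 and -0.37 at 12 months and between 0.30 and 0.51 with age in control retina. When a library was left out, 2 to 5 of these 5 genes were again among the nearest 5, with 2 without 12-month control replicate 1.

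**Figure D3:**
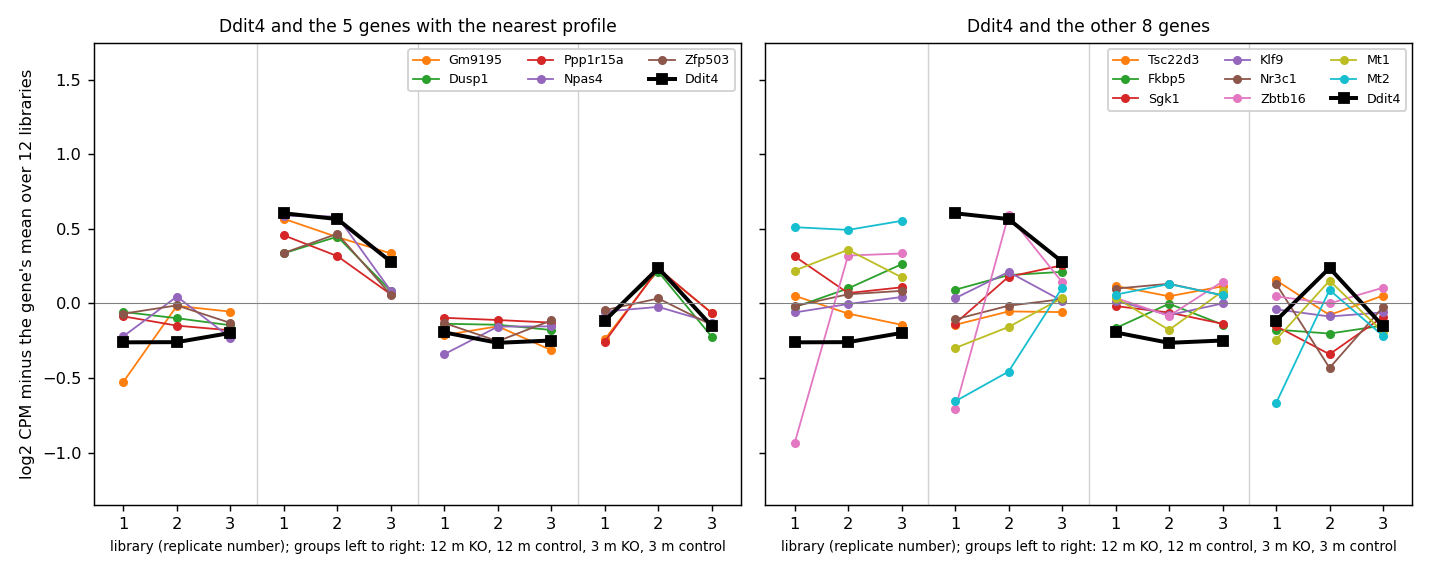
Centred log2 CPM by library for Ddit4 with its 5 nearest genes and for Ddit4 with the 8 other members. The nearest genes were picked over the libraries shown and follow Ddit4 by choice, and among the members Klf9 ranks 1492 and Mt2 ranks 14018 of 14355 in likeness.

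Lists of genes tied to the known inputs and outputs of Ddit4 were read beside it. Of 25 targets of hypoxia-inducible factors, 1 fell in KO retina at 12 months, where 0.085% of all genes did. It was Slc16a3, a lactate transporter, which averaged 156 ± 4.53 CPM in KO and 216 ± 22.1 CPM in control retina (SD, n = 3 each), with a log2 fold change of -0.46 ± 0.078 (SE, adjusted p = 0.0085). The call was lost without control replicate 2 (adjusted p = 0.096) or KO replicate 3 (0.062) of the 12-month groups. The median log2 fold change of the 25 was -0.15, against -0.00 over all genes. The values of 21 were below 0, against 50.7% of all genes. In 10 the KO libraries lay below the control libraries, against 8.33% of all genes. Examples that did not pass are Ldha, lactate dehydrogenase, at -0.31 and Pgk1, a glycolytic enzyme, at -0.23. At 3 months 0 of 25 passed and the median was -0.00. With age in control retina Pfkfb3, which speeds glycolysis (0.41, adjusted p = 0.0061), and Egln1, an oxygen-sensing hydroxylase (0.36, adjusted p = 0.024), rose, that is 2 of 25 where 1.4% of all genes were called higher, and the median was 0.19. Without 12-month control replicate 2 the adjusted p became 0.064 for Pfkfb3 and 0.18 for Egln1, and the Egln1 call was also lost without 12-month control replicate 1 (0.057) and 3-month control replicate 1 (0.061) or 3 (0.053). A fit by edgeR to the 6 control libraries alone lost both Pfkfb3 (adjusted p = 0.056) and Egln1 (0.061). In KO retina 0 of 25 passed with age, with a median of 0.10. The comparisons at 12 months and with age in control retina share their 12-month control libraries.

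Of 30 further glucocorticoid targets, 0 passed between KO and control retina at 12 months, with a median log2 fold change of 0.00 and 15 values on each side of 0. The KO libraries lay above the control libraries in 4 of them, against 8.32% of all genes, and below in 5, against 8.33%. At 3 months 0 of 30 passed, with a median of -0.05. With age in control retina 4 fell and 0 rose, where 0.71% of all genes were called lower and 1.4% higher. They were Cdkn1a, a cell cycle inhibitor (-1.01, adjusted p = 0.0027), Arrdc2, an arrestin domain protein (-0.60, adjusted p = 0.0097), Cebpd, a transcription factor (-0.77, adjusted p = 0.013), and Nfkbia, the inhibitor of NF-kappaB (-0.40, adjusted p = 0.019). Their direction was opposite to that of Ddit4. The Cdkn1a call held under all 21 alternatives. Without a single control library the adjusted p of the others reached at most 0.070 for Arrdc2, lost without 12-month replicate 1 or 3, and at most 0.066 for Cebpd, lost without any 12-month replicate or 3-month replicate 3. Nfkbia reached at most 0.10, lost without 12-month replicate 2 or 3 or 3-month replicate 3. A fit by edgeR to the 6 control libraries alone also lost Arrdc2 (adjusted p = 0.086) and Nfkbia (0.072). In KO retina 0 of 30 passed with age. The 3-month control libraries hold the muscle RNA and raised lens RNA, and the part of either in these 4 values was not tested.

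Of 14 genes of receptor and steroid handling, which include the members Nr3c1 and Fkbp5, 0 passed in any comparison by edgeR. The most abundant were the chaperones Hsp90aa1, at a mean of 1492 CPM, and Hspa8, at 911 CPM, with log2 fold changes of -0.06 and -0.17 at 12 months. Of 18 genes that make up or control mTORC1, the complex that Ddit4 restrains, 0 passed in any comparison either. Tsc2, the GTPase-activating subunit through which Ddit4 acts, had a log2 fold change of -0.10 at 12 months and Mtor, the kinase itself, of -0.12. Of 19 ATF4 targets, 0 passed in KO against control retina at either age. With age in control retina Trib3, a pseudokinase (0.86, adjusted p = 0.0011 by edgeR), and Atf3, a stress transcription factor (0.57, adjusted p = 0.048), rose. These were 2 of 19, where 1.4% of all genes were called higher. In KO retina Atf3 rose (0.80, adjusted p = 0.0038), which was 1 of 19, where 2.37% of all genes were called in either direction. The Trib3 call and the Atf3 call in KO retina held under all 21 alternatives, and the Atf3 call in control retina was lost under 10, up to adjusted p = 0.27 without 12-month control replicate 2.

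Of the 6 tested genes of the metal response beside Mt1 and Mt2, 0 passed in KO against control retina at either age. Mtf1, the metal-sensing factor, had a log2 fold change of 0.14 and Mt3, the metallothionein of brain, of -0.03 at 12 months. Slc30a10, a manganese exporter, fell with age in KO retina (-0.98, adjusted p = 0.011 by edgeR) and in control retina (-0.91, adjusted p = 0.023). It was 1 of 6 in each, where 2.37% of all genes were called in either direction in KO retina. In control retina 0.71% of all genes were called lower. The calls were lost under 3 and 5 of 21 alternatives, up to adjusted p = 0.071 without 12-month KO replicate 2 and 0.13 without 12-month control replicate 3.

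**Figure D4:**
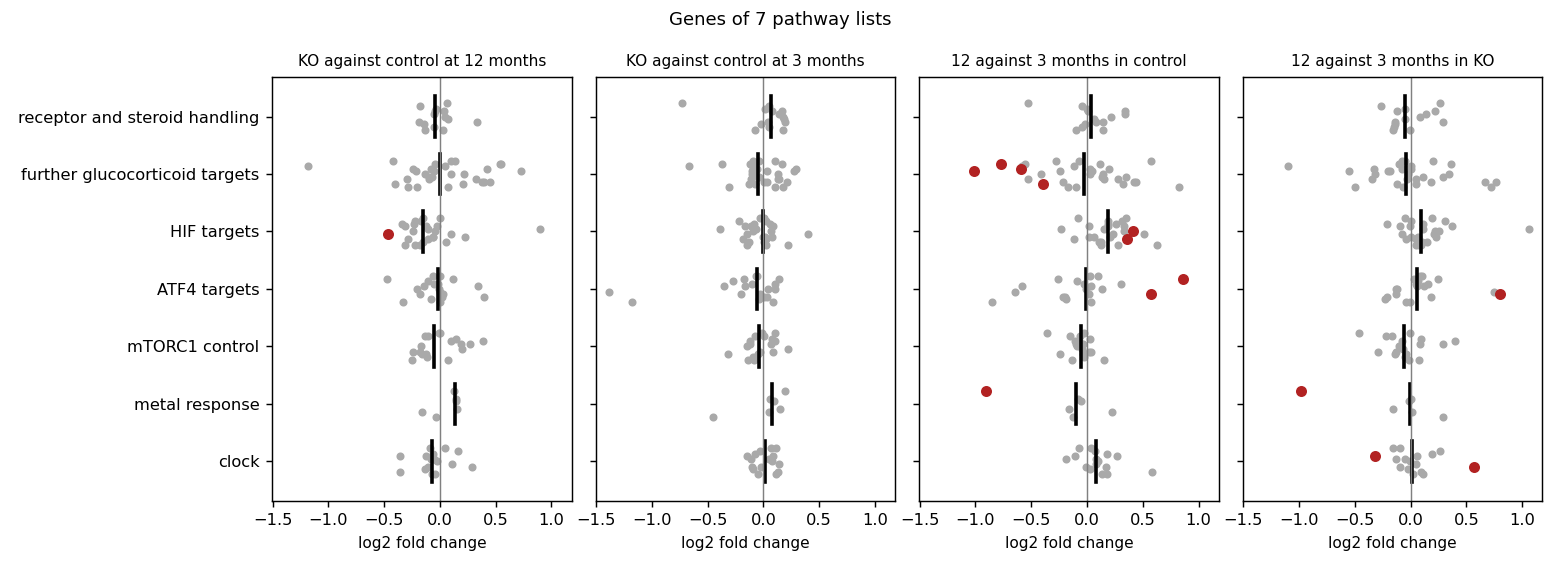
Log2 fold changes of the genes of each list in the 4 comparisons, with red points for adjusted p below 0.05 and a black bar at the list's median. The targets of hypoxia-inducible factors have a median of -0.15 at 12 months and 0.19 with age in control retina, and the further glucocorticoid targets have medians of 0.00 and -0.03.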

How the data were processed

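Counts were deposited by the authors per Entrez gene ID for each of 12 retina libraries. RNA integrity numbers exceeded 8.0 and the library kit was a stranded mRNA kit, per the labels' protocols. Per the submitters' processing notes, HISAT2 2.1.0, featureCounts 1.6.4, DESeq2 1.22.1 and GRCm38 were used. Neither the strand setting nor the handling of multiply aligned reads is given in the sources used here. Of counts from 1 to 20, 60.7% to 70.2% were even, against 48.6% to 50.7% of counts from 101 to 400. Whether both reads of a pair were counted is not given, so halved counts were an alternative. No member overlaps another gene with more than 3 counts.

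The authors also deposited a table for 12 months without a header, read as mean normalized count (a signal), log2 fold change with its error, a score (their ratio), p-value and adjusted p. Values from that deposited table, log2 fold change and p-value included, are named as the authors'.

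Genes were filtered with filterByExpr, scaled by TMM and fitted by the robust quasi-likelihood method (glmQLFit, glmQLFTest) of edgeR 4.0.16 (limma 3.58.1, R 4.3.3), with a group term over all 12 libraries and Benjamini-Hochberg adjustment over the 16475 genes tested, at a threshold of 0.05. Log2 CPM used a prior count of 2. Profile likeness used genes with a mean of at least 1 CPM. Exon lengths were the union of GENCODE M21 exons. The procedure was tested on simulated data. The alternatives were DESeq2 1.42.0, RLE factors, weighted limma-voom, other filters, library sizes that leave out other tissues' genes, halved counts, the 6 libraries compared, a replicate block and each library left out. Their use on named genes of the lists was added after the data had been seen. The members and lists were chosen with earlier results of these data known. Named were all members, from each list up to 4 genes past the threshold or else the 2 most abundant, and the 5 profiles nearest to Ddit4. Ldha and Pgk1, the ratio of Mt2 to Mt1 and the comparison of spread were chosen after the values were seen.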

Additional observations from a re-analysis of the deposited data

How the results depend on the processing

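Of 936 recomputed member values, 869 counted as unchanged and 18 newly passed. Another 2 no longer passed (Ddit4 with age in control retina), and 47 changed sign, all of them values that had not passed. Unchanged means the same direction and side of the threshold. For Ddit4 at 12 months and in the difference of KO effects it means the same direction and a shift below the SD within groups, whatever the threshold. With Ddit4 counted, the number of members past the threshold at 12 months (1) was 2 by DESeq2, 3 by limma-voom, 2 without a filter, 2 with the replicate block and 1 to 3 with a library left out. Ddit4, chosen on this contrast, is among them under every alternative, and its pass is no test. With age in control retina (1) it was 2 by DESeq2, 2 by limma-voom, 0 with the 6 libraries alone and 0 to 2 with a library left out. The 1 of the main fit is Ddit4, again a description with no test. With age in KO retina (0) it was 3 by limma-voom and 1 with the 6 libraries alone. For the difference of KO effects (0) it was 1 by limma-voom and 0 to 1 with a library left out. The member that passed there was Ddit4 in each case. The contrast that chose Ddit4 enters this difference, so its pass is a description with no test. The causes were not tested. Replicate numbers did not pair the libraries (correlations of same-numbered libraries -0.082 to 0.044), and with the replicate block Mt2 passed at 12 months (adjusted p = 0.036). By limma-voom the log2 fold change turned to -0.0027 for Tsc22d3, -0.020 for Sgk1 and 0.15 for Zbtb16 at 12 months, to -0.037 for Nr3c1, -0.019 for Zbtb16, 0.074 for Mt1 and 0.089 for Mt2 with age in control retina, to 0.18 for Zbtb16 with age in KO retina, and to 0.0026 for Nr3c1 and 0.19 for Zbtb16 in the difference. With the replicate block Zbtb16 turned to -0.015 with age in control retina. Ddit4 with age in KO retina turned to 0.0049 with a filter of 1 CPM, 0.0025 with halved counts and 0.0028 with the 6 libraries alone. With a library left out, values at 12 months ran from -0.021 to 0.078 for Tsc22d3, -0.13 to 0.018 for Fkbp5, -0.049 to 0.14 for Sgk1 and -0.38 to 0.24 for Zbtb16. At 3 months they ran from -0.011 to 0.10 for Tsc22d3, -0.081 to 0.042 for Zbtb16 and -0.0060 to 0.20 for Mt1. With age in control retina they ran from -0.087 to 0.18 for Nr3c1, -0.28 to 0.34 for Zbtb16, -0.14 to 0.083 for Mt1 and -0.32 to 0.13 for Mt2. With age in KO retina they ran from -0.025 to 0.017 for Ddit4, -0.017 to 0.039 for Klf9 and -0.22 to 0.29 for Zbtb16. In the difference they ran from -0.071 to 0.045 for Tsc22d3, -0.17 to 0.019 for Sgk1, -0.24 to 0.034 for Nr3c1 and -0.36 to 0.26 for Zbtb16. Over all genes, the 35 calls at 12 months became 129 by DESeq2, 186 by limma-voom and 64 without a filter. Depth limits Zbtb16 most, with 80 to 231 counts a library.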

Other observations

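Of 16 clock genes, which share several targets of glucocorticoids, 0 passed in KO against control retina at either age. Their median log2 fold change was -0.07 at 12 months, with 12 values below 0, against 50.7% of all genes. With age in KO retina Ciart, a repressor of the clock, rose (0.57, adjusted p = 0.0075 by edgeR's quasi-likelihood test) and Per2, a core clock repressor, fell (-0.32, adjusted p = 0.027). These were 2 of 16, where 2.37% of all genes passed in either direction. In control retina 0 of 16 passed, against 2.11% of all genes. The Ciart call was lost without 3-month KO replicate 1 (adjusted p = 0.076), and the Per2 call without any 3-month KO replicate or 12-month KO replicate 1 or 2, up to adjusted p = 0.14. The hour at which the retinas were taken is not given in the sources used here. Of 13 tested paralogs of the members, 0 passed in any comparison, and the most abundant, Fkbp4 and Tsc22d1, had log2 fold changes of -0.13 and -0.01 at 12 months.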
